A study of Mus musculus with 10 samples.

Results

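Genes of the cell division cycle were followed in mouse spinal cord with experimental autoimmune encephalomyelitis (EAE), an autoimmune disease of myelin used as a model of multiple sclerosis. The members were the 42 rows of the deposited table whose gene name is on a list of mitosis, replication licensing and S phase genes, out of 21936 rows, and all 42 names were found. RNA of wild-type mice was sequenced at 14 days in 10 samples. The titles of 5 samples begin with Nar, and the study's design text speaks of EAE mice treated with naringenin, a citrus flavonoid. The titles of the other 5 begin with EAE. Because the treatment field gives naringenin for every sample, the grouping rests on the titles alone, and the labels used here do not give what the EAE group received. Strain, sex, age, dose and the day treatment began are not in them either, and cord without EAE was not analysed here. No label ties the 5 replicates to 5 different mice, and each p-value therefore reflects variation among these libraries, part or all of which may be technical.

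A dividing cell passes from a first gap phase (G1) through DNA synthesis (S phase) to mitosis. D-type cyclins respond to outside signals in G1, and E-type cyclins and the transcription factor E2F1 carry the cell into S phase. CDC6 and CDT1 load the ring of MCM2 to MCM7 onto replication origins, a step called licensing, and CDC45 and the GINS proteins later turn the ring into an active helicase. Mitotic genes such as those of B-type cyclins, Aurora kinases and spindle motors are transcribed late in the cycle, so their RNA marks cells close to division. In EAE, dividing cells of the cord can include microglia, infiltrating leukocytes and oligodendrocyte precursors. Bulk RNA does not tell fewer dividing cells from less of these RNAs per cell.

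The members fall into 5 roles, assigned from textbook knowledge: 3 D-type cyclins of G1, 3 genes of S phase entry, 12 of licensing and the helicase, 5 of the replication fork and nucleotide supply, and 19 of mitosis. Promoters of mitotic and of licensing genes are known to carry different short motifs, the CCAAT box with the cell cycle genes homology region (CHR) in the first and E2F sites in the second. Promoters of 5 members are therefore shown first as examples, and the counts by role follow them. RefSeq promoters on GRCm38.p6 were matched for 33 of the 42 members (35 promoters), and the 250 bases before each start were searched on both strands, each overlapping match counted. For 25 of the 35 promoters, the 30 bases after the start were found in an annotated transcript of the gene, on the same strand. The letters searched were CCAAT, then TTTGAA or TTCGAA for the CHR, then TTCGCGC or TTGGCGC or TTCCCGC or TTGCCGC for the E2F core. Capitals mark these matches, and each sequence runs 5′ to 3′ on the gene's strand up to the base before the start.

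Cdk1 (mitosis, chr10:69352913-69353162, minus strand): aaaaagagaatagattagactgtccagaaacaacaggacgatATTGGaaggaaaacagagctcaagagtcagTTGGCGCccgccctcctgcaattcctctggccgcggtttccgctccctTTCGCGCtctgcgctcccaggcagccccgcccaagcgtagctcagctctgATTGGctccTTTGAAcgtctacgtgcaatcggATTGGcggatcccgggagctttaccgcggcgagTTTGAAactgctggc
Top2a (mitosis, chr11:99024190-99024439, minus strand): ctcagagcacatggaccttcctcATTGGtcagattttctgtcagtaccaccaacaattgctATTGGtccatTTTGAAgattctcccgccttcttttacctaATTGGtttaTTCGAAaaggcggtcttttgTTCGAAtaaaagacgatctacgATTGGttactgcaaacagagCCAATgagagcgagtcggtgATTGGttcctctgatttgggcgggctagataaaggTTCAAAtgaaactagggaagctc
Ube2c (mitosis, chr2:164769679-164769928, plus strand): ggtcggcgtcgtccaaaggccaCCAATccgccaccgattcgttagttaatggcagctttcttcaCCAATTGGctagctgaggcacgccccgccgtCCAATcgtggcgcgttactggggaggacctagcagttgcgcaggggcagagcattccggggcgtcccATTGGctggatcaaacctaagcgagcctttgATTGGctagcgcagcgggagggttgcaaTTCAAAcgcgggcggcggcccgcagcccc
Mcm6 (licensing, chr1:128359706-128359955, minus strand): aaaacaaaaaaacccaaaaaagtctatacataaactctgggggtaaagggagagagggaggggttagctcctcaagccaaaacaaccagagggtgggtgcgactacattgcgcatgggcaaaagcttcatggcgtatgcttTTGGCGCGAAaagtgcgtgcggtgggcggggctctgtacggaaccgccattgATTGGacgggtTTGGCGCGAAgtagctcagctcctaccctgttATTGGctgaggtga
Mcm10 (licensing, chr2:5012792-5013041, minus strand): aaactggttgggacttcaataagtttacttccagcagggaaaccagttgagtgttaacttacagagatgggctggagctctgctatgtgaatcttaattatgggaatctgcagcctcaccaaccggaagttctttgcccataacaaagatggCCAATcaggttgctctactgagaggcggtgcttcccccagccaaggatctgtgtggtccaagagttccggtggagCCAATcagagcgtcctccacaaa

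The Cdk1 promoter above holds 3 CCAAT boxes, 2 CHR matches and 2 E2F cores. Top2a holds 6 CCAAT boxes and 4 CHR matches, Ube2c 6 and 1, and neither has an E2F core. Mcm6 holds 2 CCAAT boxes and 4 E2F cores without a CHR match, while Mcm10 has 2 CCAAT boxes and no match to the others. Of 16 mitotic promoters, 14 (87.5%) held a CCAAT box, 8 (50%) a CHR match and 3 (18.8%) an E2F core. Of 10 licensing promoters, 8 (80%) held a CCAAT box, 3 (30%) a CHR match and 5 (50%) an E2F core. Among all 32851 promoters of this length the shares were 33.8%, 17.1% and 7.89%, and among the 14778 promoters of tested genes 34.7%, 12.2% and 12.9%. These are matches of letters in a window and not measured binding. In the deposited coordinates Cdk1 ends at 69352938 and Ube2c starts at 164769898. The end of both windows, with a CHR match in it, thus lies inside the gene. Windows wholly inside the gene are those of Cdc6, Cdca8 and E2f1, both of Mcm7 and the downstream window of Ccnd3. Some others, such as that of Pcna, reach into the gene in part. The 10 licensing promoters belong to 9 genes, with both windows of Mcm7 counted. The windows of Cdc6 and Mcm7 each hold an E2F core, and they are among the 5 licensing promoters that do.

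Sample totals were 14.5 to 15.1 M counted reads in Nar and 16.7 to 19 M in EAE, with no overlap (exact permutation p = 0.00794, two-sided, which is the smallest p of 5 against 5). The mitochondrial genome took 7.04 ± 0.401% of Nar counts and 5.69 ± 0.893% of EAE counts (SD over 5 samples, exact two-sided permutation p = 0.0317), and the 2 ranges overlapped (6.69 to 7.51% and 4.62 to 7.01%). Summed markers of neurons (8551 to 11506 counts per M reads, CPM) and of oligodendrocytes (24404 to 38749.9 CPM) were high in all 10 samples. Nar 4 stood apart from the other Nar samples in immune markers and in the mitotic genes, so results that rest on it are given with and without it. Its weight was chosen after its values were seen, and values without it describe the remaining 9 samples.

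In the mitotic genes a single sample, Nar 4, stood out and was the highest of the 10 in all 19. It was also the highest in 6 of 12 licensing genes and in 4 of 5 fork and nucleotide genes. Of all tested genes, 11.3% were highest in Nar 4. Between the groups, 1 of 40 tested members rose in Nar, the replication initiation gene Mcm10, and 0 fell (edgeR's quasi-likelihood test, adjusted p below 0.05 over 14595 genes). That is 2.5% of the tested members, against 3.93% of all tested genes called in either direction (1.58% higher and 2.36% lower). At an unadjusted p below 0.05, 4 members passed (Mcm10, Ccnd1, Ccnd2 and Ube2c), against 22.5% of all genes. Without Nar 4, 4 of 40 were called, Mcm10 higher and the cyclin genes Ccnd1 and Ccnd2 and the helicase gene Mcm3 lower. The background was then 10.1% (2.61% higher, 7.49% lower). All tested genes were called at 8.97% by the DESeq2 Wald test, 4.36% with the replicate number as a block, 1.35% with the mitochondrial share as a covariate, 0.802% at an adjusted p of 0.01 and 8.67% at 0.1. Aurkb and Bub1, both mitotic, had too few reads to be tested.

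**Figure D1:**
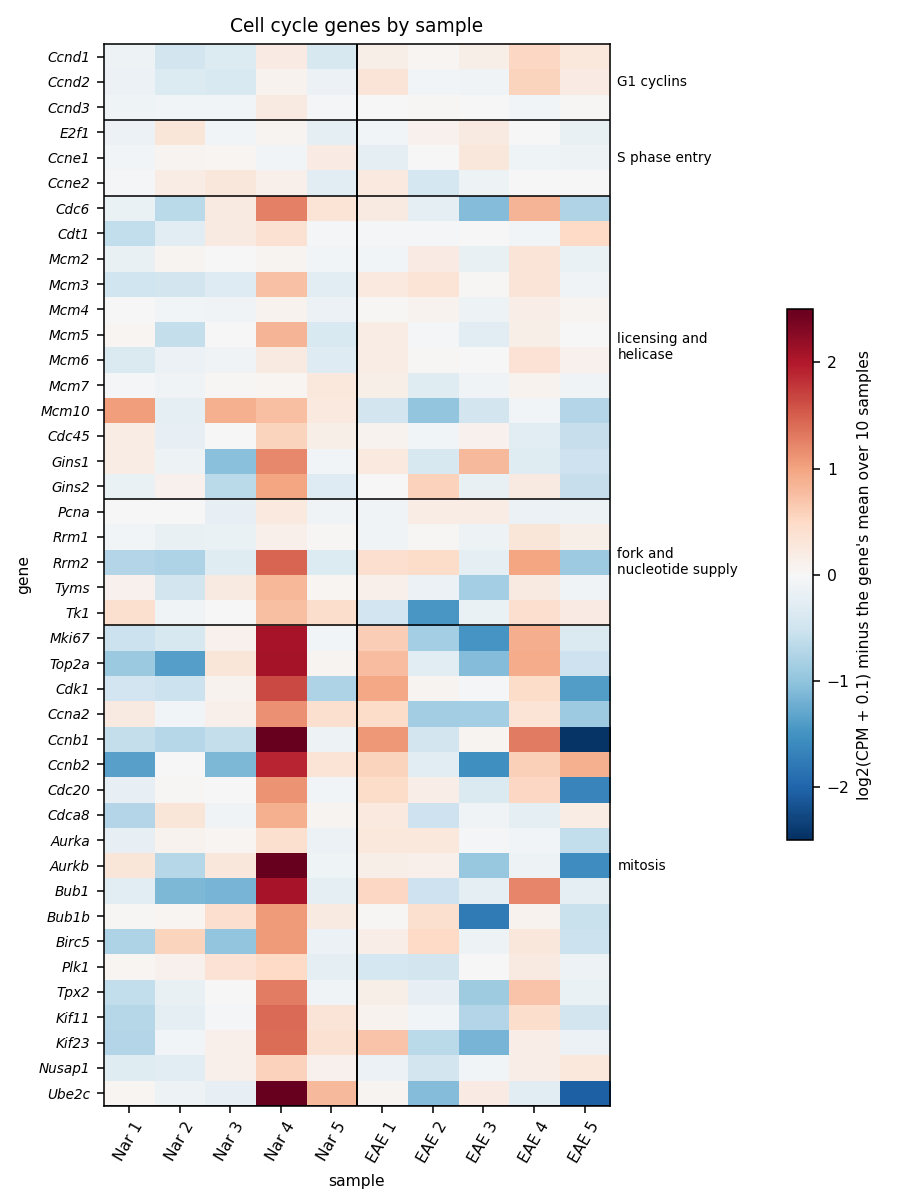
Level of the 42 genes (rows, grouped by role) in the 10 samples (columns), as log2(CPM + 0.1) minus the gene's mean over the 10 samples, red above and blue below that mean, with colours capped at 2.5. The column of Nar 4 is red through the 19 mitotic genes and paler through the licensing genes.

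Per length, the members differed widely in level. In FPKM, the authors' count per kilobase and M reads, the replication clamp gene Pcna had the highest median over the 10 samples, 22.7 (20.2 to 27.4). Ccnd1 (6.93, 4.69 to 9.85), Ccne1 (5.53, 4.85 to 6.65) and Mcm4 (5.09, 4.46 to 5.83) followed and overlapped. Below Pcna, every gene overlapped its neighbour in the order of medians. The mitotic genes had median FPKM from 0.0778 (Bub1) to 1.27 (Nusap1), and the licensing genes from 0.165 (Cdc6) to 5.09 (Mcm4). Within the MCM ring the median FPKM was 5.09 for Mcm4, 3.67 for Mcm7, 2.26 for Mcm6, 1.78 for Mcm3, 1.26 for Mcm5 and 1.09 for Mcm2. The range of Mcm4 lay above that of Mcm7, and each of the others overlapped its neighbour in this order. Mcm7 shares 12.6% of its exon bases with other genes, so its level may hold reads of those genes.

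D-type cyclins act first, where they activate CDK4 and CDK6. Ccnd1, the gene of cyclin D1, had 28.5, 22.6, 24.6, 36 and 23.6 CPM in Nar 1 to 5 and 34.2, 32.1, 34.2, 44.6 and 37.4 CPM in EAE 1 to 5. Nar 4 lay inside the EAE range, and the other 4 Nar samples lay below every EAE sample. The log2 fold change (Nar minus EAE) was −0.43, SE 0.129, adjusted p = 0.0795 by edgeR, and −0.56, SE 0.106, adjusted p = 0.00365 by edgeR, without Nar 4. With the replicate block Ccnd1 passed (−0.44, adjusted p = 0.0208 by edgeR), as it did by the DESeq2 Wald test (−0.43, adjusted p = 0.0244). With the mitochondrial share as a covariate it was −0.25 (adjusted p = 0.516 by edgeR). Ccnd1 (chromosome 7, 144929931 to 144939925, GRCm38) shares 23.4% of its exon bases with another annotated gene, so reads of the pair may be mixed.

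Ccnd2, the gene of cyclin D2, had 33.7, 29.4, 28.6, 39.9 and 33.8 CPM in Nar 1 to 5 and 46.5, 35.7, 35, 54.9 and 43.2 in EAE 1 to 5. Here too Nar 4 was the one Nar sample inside the EAE range. Its log2 fold change was −0.38, SE 0.129, adjusted p = 0.111 by edgeR, −0.46, SE 0.126, adjusted p = 0.0352 by edgeR without Nar 4, and −0.37 with the replicate block (adjusted p = 0.0208 by edgeR). With the mitochondrial share as a covariate it was −0.035 (adjusted p = 0.927 by edgeR). Ccnd3, the gene of cyclin D3, had 29.6 to 31 CPM in 4 Nar samples, 37.2 in Nar 4 and 30.5 to 32.7 in EAE (−0.013, SE 0.0737, adjusted p = 0.938 by edgeR). Summed markers of microglia, T cells, neutrophils and astrocytes likewise lay below the whole EAE range in 4 Nar samples and inside it in Nar 4. Those of macrophage and myeloid cells, B and plasma cells, and fibroblasts lay below that range in every Nar sample, Nar 4 included. The neuron, oligodendrocyte, oligodendrocyte precursor, endothelial, Schwann cell, ependymal and erythroid sums showed neither pattern. The part of any of these cells in the cyclin values was not tested.

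Over all 10 samples the groups overlapped in each of the 40 tested members, whereas 5.79% of all tested genes did not overlap (3.12% lower and 2.67% higher in Nar). Without Nar 4 they did not overlap in 4 members (10% of those tested), all lower in Nar: Ccnd1, Ccnd2, Mcm3 and Mcm6. The background without Nar 4 was 13%, with 8.7% lower and 4.26% higher.

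Genes of S phase entry did not peak in Nar 4. E2f1 had 9.2, 12.5, 9.68, 10.7 and 8.78 CPM in Nar 1 to 5 and 9.76, 11.1, 12, 10.2 and 8.99 in EAE 1 to 5 (log2 fold change −0.032, SE 0.123, adjusted p = 0.902 by edgeR). Ccne1, a cyclin E gene, had 14.3, 15.7, 15.5, 14.2 and 17.4 CPM in Nar and 12.7, 15, 18.1, 13.9 and 13.7 in EAE (0.067, SE 0.107, adjusted p = 0.747 by edgeR). Ccne2, the other, had 7.03, 8.25, 8.81, 7.89 and 5.9 CPM in Nar and 8.58, 5.3, 6.62, 7.23 and 7.23 in EAE (0.12, SE 0.151, adjusted p = 0.678 by edgeR). The highest sample was Nar 2 for E2f1, EAE 3 for Ccne1 and Nar 3 for Ccne2, at most 1.05 times the next. Ccne2 shares 17.4% of its exon bases with another gene.

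Licensing and helicase genes had a median log2 fold change of 0.053, beside 0.016 over all tested genes, with 7 of 12 positive. Without Nar 4 it was −0.17, with 4 of 12 positive. Mcm10, which helps the loaded ring become an active helicase, was the member that rose. It had 3.58, 1.41, 3.2, 2.9 and 1.99 CPM in Nar 1 to 5 and 1.18, 0.795, 1.2, 1.6 and 0.967 in EAE 1 to 5. Nar 1, 3, 4 and 5 lay above every EAE sample, and Nar 2 lay below EAE 4. The log2 fold change was 1.19, SE 0.291, adjusted p = 0.0383 by edgeR, and 1.15, SE 0.311, adjusted p = 0.0315 by edgeR, without Nar 4. Counts were small, 20 to 53 reads a sample in Nar and 15 to 30 in EAE. The call was lost when Nar 1, 3 or 5 or EAE 1, 2 or 5 was left out (adjusted p = 0.0705 to 0.119 by edgeR) and with the mitochondrial share as a covariate (1.08, adjusted p = 0.243). Mcm10 (ENSMUSG00000026669) spans 4989714 to 5012791 on chromosome 2 in GRCm38, exons and introns included, and shares no exon bases with another annotated gene.

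The genes of the MCM ring did not follow Mcm10. Mcm2 had 6.76, 8.18, 7.68, 8.16 and 7.41 CPM in Nar 1 to 5 and 7.4, 8.96, 6.79, 9.73 and 6.94 in EAE 1 to 5 (log2 fold change −0.061, SE 0.13, adjusted p = 0.814 by edgeR). Mcm3 had 4.8, 4.94, 5.41, 11.3 and 5.63 CPM in Nar and 8.11, 8.64, 6.96, 8.51 and 6.43 in EAE. Nar 4 was thus the highest of all 10 for Mcm3 and the other Nar samples were the 4 lowest. Its log2 fold change was −0.27, SE 0.222, adjusted p = 0.498 by edgeR, and −0.57, SE 0.139, adjusted p = 0.0169 by edgeR, without Nar 4. Mcm5 had 5.14, 3.24, 5.01, 9.04 and 3.77 CPM in Nar and 5.68, 4.88, 4.05, 5.48 and 5.01 in EAE (0.064, SE 0.239, adjusted p = 0.897 by edgeR), and −0.22 without Nar 4. Nar 4 was again the highest. Mcm6 had 8.18, 9.52, 9.88, 12.4 and 8.37 CPM in Nar and 12.1, 10.8, 10.6, 13.6 and 11.3 in EAE (−0.27, SE 0.128, adjusted p = 0.226 by edgeR). Mcm4 and Mcm7 ran from 16.2 to 20.1 and 13.3 to 19.8 CPM over the 10 samples.

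The other loading and activating factors did not pass the test. Cdc6 had 0.494 to 2.16 CPM in Nar and 0.342 to 1.6 in EAE, and Cdt1 had 2.16 to 4.39 and 3.19 to 4.78. Cdc45 had 2.47 to 4.25 CPM in Nar and 1.88 to 3.08 in EAE. In Nar and EAE, the GINS subunit genes had 0.401 to 2.29 and 0.626 to 1.71 CPM (Gins1), and 1.07 to 3.58 and 1.14 to 2.65 CPM (Gins2). Gins2 shares 67.3% of its exon bases with another gene. Cdc6, Cdc45, Gins1 and Gins2 were each highest in Nar 4, at 2.9, 1.48, 2.71 and 2.3 times the median of the other 9 samples. For Cdt1 this ratio was 1.33, and the highest sample was EAE 5.

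Among genes of the fork and nucleotide supply, Pcna was even, with 56.8, 56.3, 49, 66.3 and 53.2 CPM in Nar 1 to 5 and 53.3, 64.1, 64.2, 50.7 and 51.7 in EAE 1 to 5 (log2 fold change −0.012, SE 0.0936, adjusted p = 0.954 by edgeR). Rrm1, the large subunit gene of ribonucleotide reductase, ran from 24.3 to 30.3 CPM in Nar and 25.4 to 34.1 in EAE. The small subunit gene Rrm2, known to peak in S phase, had 1.83, 1.76, 2.47, 8.64 and 2.4 CPM in Nar 1 to 5 and 4.14, 4.29, 2.62, 6.22 and 1.59 in EAE 1 to 5. Nar 4 was the highest sample for Rrm2 and EAE 4 the next, and the log2 fold change was −0.14, SE 0.493, adjusted p = 0.889 by edgeR, and −0.84, SE 0.334, adjusted p = 0.143 by edgeR, without Nar 4. The thymidine kinase gene Tk1 had 4.12, 2.89, 3.07, 5.26 and 4.25 CPM in Nar and 2.19, 1.06, 2.74, 4.2 and 3.58 in EAE (0.51, SE 0.305, adjusted p = 0.339 by edgeR). The thymidylate synthase gene Tyms had 2.97, 1.97, 3.27, 4.99 and 2.88 CPM in Nar and 3.02, 2.49, 1.48, 3.24 and 2.62 in EAE (0.32, SE 0.264, adjusted p = 0.486 by edgeR). Pcna, Tk1 and Tyms were each highest in Nar 4, Pcna at 1.03 times the next sample, and in each the groups overlapped.

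**Figure D2:**
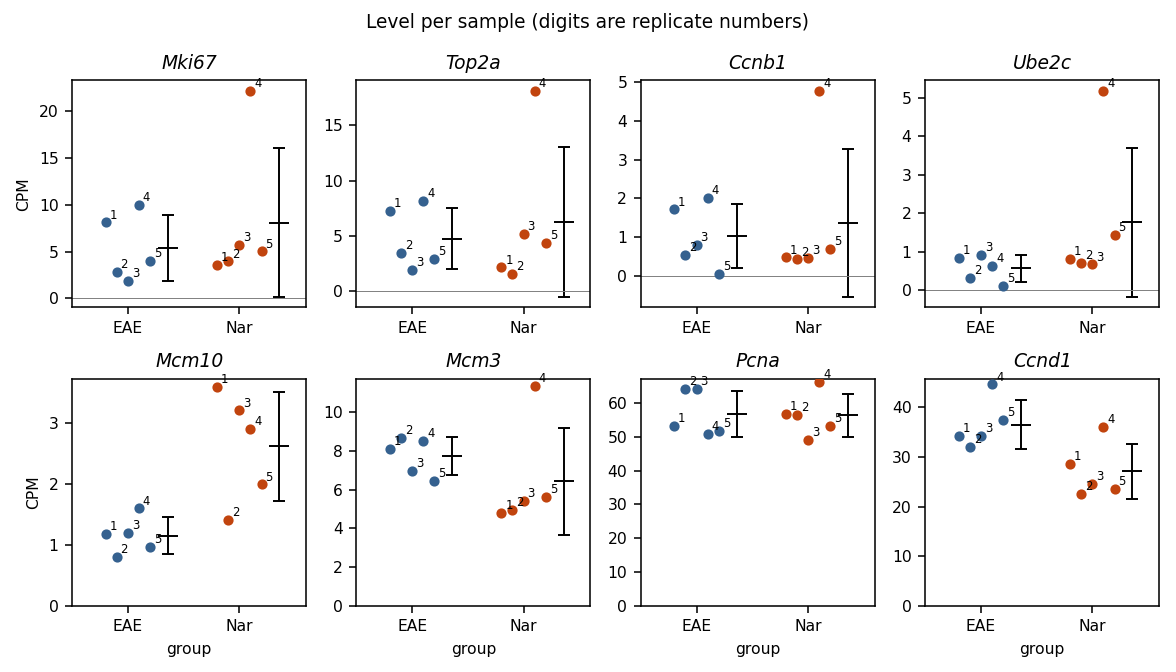
CPM of 8 genes in the EAE (blue) and Nar (orange) samples, with the replicate number beside each point and the mean ± SD of 5 samples as a bar. Nar 4 lies above all other points for Mki67, Top2a, Ccnb1, Ube2c, Mcm3 and, by a small margin, Pcna. It lies inside its group for Mcm10, and for Ccnd1 the other 4 Nar samples lie below every EAE sample.

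Mitotic genes had a positive log2 fold change in 17 of 17 tested, with a median of 0.33, but 0 passed the test (1, Ube2c, at an unadjusted p below 0.05). Of all tested genes, 53.4% were positive. Without Nar 4, 12 of the 17 were negative and the median was −0.045, while 53.5% of all genes were positive. Mki67, the gene of the proliferation marker Ki-67, had 3.58, 3.95, 5.67, 22.2 and 5.01 CPM in Nar 1 to 5 and 8.11, 2.86, 1.82, 9.95 and 4.04 in EAE 1 to 5. Nar 4 was 2.23 times the next sample, EAE 4, and the other 4 Nar samples lay within the EAE range. Nar 4 had 329 Mki67 reads (95% exact Poisson interval 294 to 367, counting error only) and EAE 4 had 187 (161 to 216). The log2 fold change was 0.59, SE 0.645, adjusted p = 0.62 by edgeR, and −0.23, SE 0.44, adjusted p = 0.788 by edgeR, without Nar 4.

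Top2a, the topoisomerase gene whose product untangles sister chromosomes, had 2.16, 1.55, 5.21, 18.2 and 4.39 CPM in Nar and 7.28, 3.5, 1.94, 8.14 and 2.9 in EAE (0.41, SE 0.687, adjusted p = 0.766 by edgeR, or −0.51 without Nar 4). Cdk1, the kinase gene for entry into mitosis, had 0.947, 0.917, 1.47, 4.52 and 0.755 CPM in Nar and 2.78, 1.43, 1.31, 1.91 and 0.455 in EAE (0.13, SE 0.541, adjusted p = 0.91 by edgeR, or −0.62 without Nar 4). For Mki67, Top2a and Cdk1 alike, Nar 4 was the highest sample, EAE 1 and EAE 4 came next, and the groups overlapped.

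Cyclins A and B bind CDK1. Ccnb1, the gene of cyclin B1, had 0.473, 0.423, 0.467, 4.79 and 0.686 CPM in Nar and 1.72, 0.53, 0.798, 2.02 and 0.0569 in EAE. Nar 4 had 71 reads (95% exact Poisson interval 55.5 to 89.6) and EAE 5 had 1 (0.0253 to 5.57), and Nar 4 was 9.04 times the median of the other 9 samples. Ccnb2, the gene of cyclin B2, ranged over 0.27 to 3.44 CPM in Nar and 0.228 to 1.65 in EAE. Ccna2, the gene of cyclin A2, which also acts in S phase, had 3.38, 2.75, 3.14, 6.48 and 3.84 CPM in Nar and 3.96, 1.54, 1.54, 3.67 and 1.48 in EAE (0.68, SE 0.34, adjusted p = 0.251 by edgeR). Without Nar 4 its value was 0.43 (adjusted p = 0.443 by edgeR), against −0.99 for Ccnb1 and −0.70 for Ccnb2. Ccna2 shares 12.5% of its exon bases with another gene.

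Ube2c and Cdc20 serve the machinery that destroys the cyclins at the end of mitosis. Ube2c, a ubiquitin-conjugating enzyme gene, had 0.811, 0.705, 0.668, 5.2 and 1.44 CPM in Nar and 0.828, 0.318, 0.912, 0.638 and 0.114 in EAE. Nar 4 was 3.61 times the next sample. Its log2 fold change of 1.64 was the highest of the 40 tested members (SE 0.665, adjusted p = 0.175 by edgeR), and it was 0.69 without Nar 4 (adjusted p = 0.402). Ube2c shares 22.8% of its exon bases with another gene. Cdc20 had 1.42 to 1.69 CPM in 4 Nar samples, 3.71 in Nar 4 and 0.455 to 2.39 in EAE.

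Kinases and checkpoint genes differed in how far Nar 4 stood out. Aurkb, the Aurora B gene, was not tested and had 3.71 CPM in Nar 4 and 0.114 to 0.676 in the other 9 samples. The checkpoint kinase gene Bub1, also not tested, had 2.09 CPM in Nar 4 and 0.134 to 1.12 in the others. Against the median of the other 9, Nar 4 was 7.73 times as high for Aurkb and 6.13 times for Bub1, but 1.37 times for the Aurora A gene Aurka and 1.43 times for the polo kinase gene Plk1, the least of the 19. The checkpoint gene Bub1b stood at 2.05 times and the Aurora B partners Cdca8 and Birc5 at 2.02 and 2.37 times.

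Among spindle genes Nar 4 was 2.79 times the median of the other 9 for Tpx2, which nucleates spindle microtubules, 2.89 times for the motor gene Kif11, 2.87 times for the motor gene Kif23 and 1.58 times for Nusap1. The median of this ratio was 2.87 over the 19 mitotic genes, 1.62 over the 12 licensing genes, 1.71 over the 5 fork and nucleotide genes, 1.14 over the D-type cyclins and 1.09 over the S phase entry genes. The ratio ran from 1.37 to 9.04 over the mitotic genes and from 1.06 to 2.9 over the licensing genes, so the 2 roles overlapped in it. The roles also differ in level. Cdc6 and Gins1, at a median of 0.744 and 0.846 CPM in the other 9, had ratios of 2.9 and 2.71. Mcm4 and Mcm7, at 18.1 and 16.1 CPM, had 1.07 and 1.06. Mki67, at 4.04 CPM, had 5.5. The part of level in the contrast of roles was not tested.

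**Figure D3:**
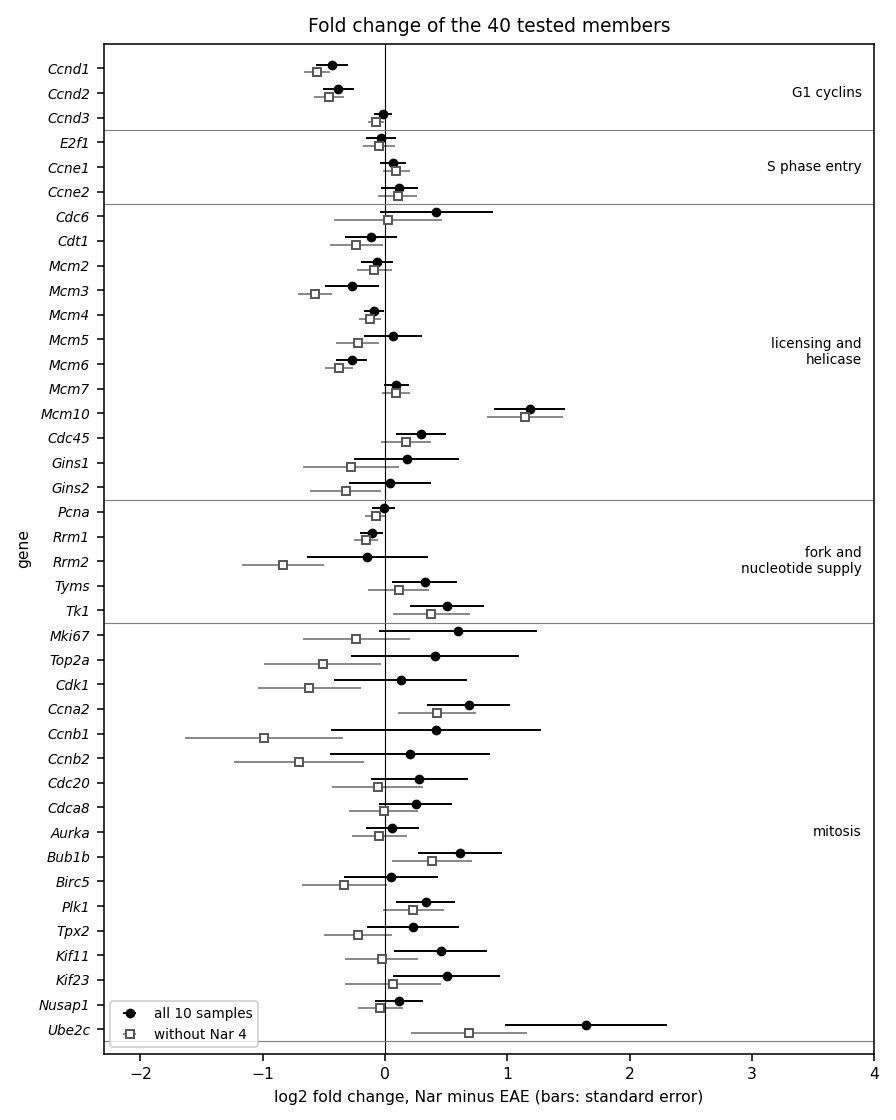
Log2 fold change (Nar minus EAE) with its standard error for the 40 tested genes, from all 10 samples (filled circles) and without Nar 4 (open squares). All 17 mitotic circles lie right of 0 and 12 of their squares lie left of it.

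The EAE samples also differed among themselves in mitosis. The 19 mitotic genes summed to 56.2, 37.8, 27.7, 61.3 and 33.4 CPM in EAE 1 to 5, a 2.21-fold range. The 12 licensing genes summed to 81.1, 76.5, 71.5, 86.5 and 74 CPM, a 1.21-fold range. Within EAE the coefficient of variation had a median of 51.8% over the mitotic genes, with 18.3% from counting error, and 17.7% over the licensing genes, with 11.5% from counting error. It ran from 19.5 to 80.2% over the mitotic genes. Over the licensing genes it ran from 7.35% (Mcm4, mean 18.6 CPM in EAE) to 61.6% (Cdc6, mean 0.818 CPM). The licensing sum leans on its most abundant genes, so the contrast of the 2 sums partly reflects level. EAE 4 was the highest of the 9 samples other than Nar 4 in 7 mitotic genes and EAE 1 in 4, and EAE 5 was the lowest of all 10 in 7 and EAE 3 in 6.

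In Nar the mitotic genes summed to 33.6, 38.2, 46.3, 124 and 45.9 CPM in Nar 1 to 5. Nar 4 was 2.02 times the highest EAE sample and 2.68 times the next Nar sample. The licensing genes summed to 71.4, 68.4, 74.1, 96.8 and 72.9 CPM, where Nar 4 was 1.12 times the highest EAE sample. The ratio of the mitotic to the licensing sum was 1.28 in Nar 4, 0.471 to 0.629 in the remaining 4 Nar samples, and 0.388 to 0.709 in EAE.

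Markers of cells that could divide in the cord were summed beside these genes. T cell markers (11 of 12 listed names in the table, none at 0 in all samples) summed to 14.7 CPM in Nar 4, 2.54 to 5.67 in Nar 1, 2, 3 and 5, and 10.04 to 23.2 in EAE. Macrophage and myeloid markers (10 of 10) summed to 208 CPM in Nar 4, 43.7 to 60.1 in Nar 1, 2, 3 and 5, and 279 to 614 in EAE. Microglia markers (8 of 8) summed to 546 CPM in Nar 4, 259 to 289 in Nar 1, 2, 3 and 5, and 503 to 581 in EAE. By sum, Nar 4 lay within or below the EAE range in these 3 lists, while its mitotic sum lay above it. Gene by gene, Nar 4 was the highest of the 10 samples in 1 of 11 T cell markers. The same held for 3 of 10 macrophage and myeloid markers and 2 of 8 microglia markers, beside 11.3% of all tested genes.

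Neutrophil markers (8 of 8) summed to 38.1 CPM in Nar 4, 19.4 to 23 in Nar 1, 2, 3 and 5, and 35.6 to 53.1 in EAE. B and plasma cell markers (6 of 6) summed to 4.39 CPM in Nar 4, 1.67 to 3.98 in Nar 1, 2, 3 and 5, and 5.94 to 24.3 in EAE. Among cells resident in the cord, oligodendrocyte precursor markers (9 of 9) summed to 959.97 CPM in Nar 4, 981 to 1133 in Nar 1, 2, 3 and 5, and 790.01 to 1047 in EAE, with Nar 4 the lowest of its group. Endothelial markers (7 of 7) summed to 317 CPM in Nar 4, 297 to 351 in Nar 1, 2, 3 and 5, and 271 to 338 in EAE, and erythroid markers (6 of 6) to 139 CPM in Nar 4, 149 to 249.9 in Nar 1, 2, 3 and 5, and 108 to 244 in EAE. The part of any of these cells in the mitotic values was not tested.

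**Figure D4:**
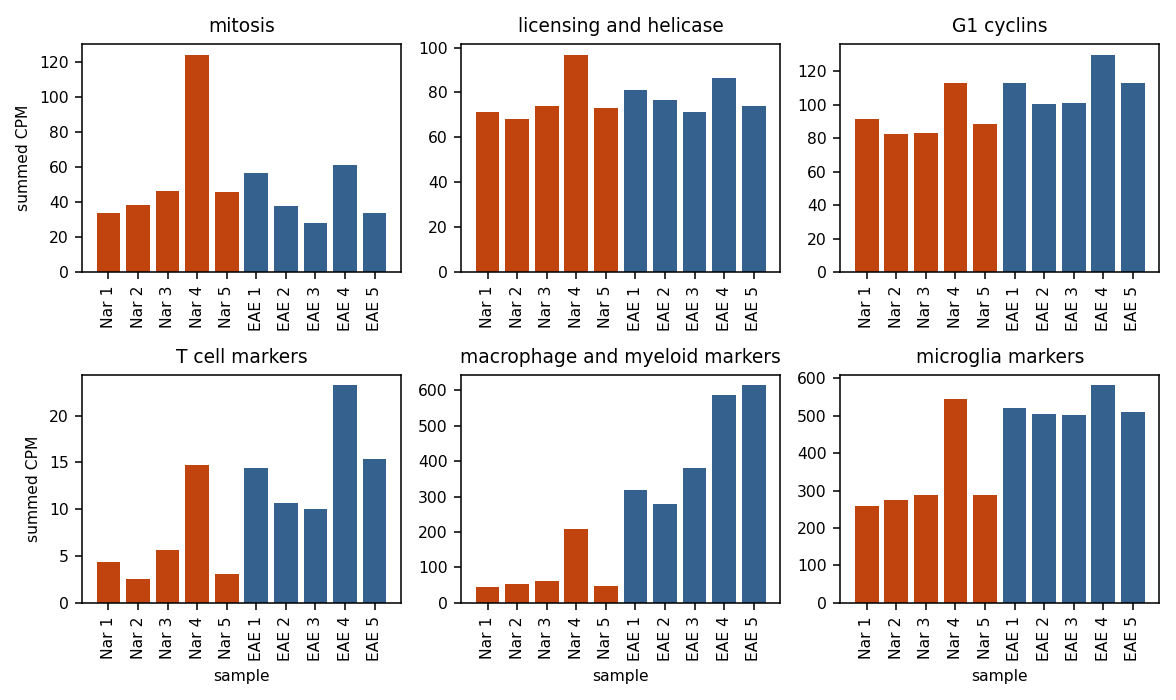
Summed CPM per sample of 3 groups of cell cycle genes and 3 lists of cell markers, with Nar in orange and EAE in blue and each axis starting at 0. In mitosis Nar 4 rises above all EAE samples, while in T cell, myeloid and microglia markers it stays below the highest EAE sample.

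Other genes of the same machinery were taken from 6 textbook lists. Of 45 genes of the spindle, kinetochore and cytokinesis, 35 were highest in Nar 4, beside 11.3% of all tested genes. Of 40 tested 1 rose and 0 fell (median log2 fold change 0.20, or −0.026 without Nar 4). Among all tested genes, 1.58% were called higher and 2.36% lower. The riser was Anln, the gene of the cytokinesis protein anillin, which is also known from myelin. Anln had 278, 280.4, 255, 236 and 279 CPM in Nar 1 to 5 and 225, 212, 196, 238 and 232 in EAE 1 to 5 (0.27, SE 0.0684, adjusted p = 0.0448 by edgeR), with Nar 4 the lowest of its group. The Anln call was lost when any 1 sample other than Nar 4 or EAE 4 was left out (adjusted p = 0.0572 to 0.141 by edgeR) and with the replicate block (0.0621). It was also lost with upper quartile scaling (adjusted p = 0.0528 by edgeR), with no filter on low counts (0.0541) and with limma-trend on FPKM (0.086, 0.0854 and 0.114 in its 3 settings). Kif20a, a motor gene and next by p, had 0.69 (adjusted p = 0.202). Without Nar 4, 1 of the 40 rose (Anln) and 1 fell, Kif2c, a gene of a microtubule-depolymerising kinesin (−0.66, adjusted p = 0.462, with all samples and −1.64, SE 0.336, adjusted p = 0.00619 by edgeR, without Nar 4).

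Of 16 genes of origin recognition and licensing control, 3 were highest in Nar 4, beside 11.3% of all tested genes. Of 15 tested 1 rose and 0 fell (median 0.078), beside 1.58% higher and 2.36% lower among all tested genes. Cdc7, the kinase gene for origin firing, had 31, 26.9, 33, 32.5 and 29.9 CPM in Nar and 25, 24.5, 18, 26 and 23.3 in EAE, without overlap (0.39, SE 0.0989, adjusted p = 0.043 by edgeR, 0.035 to 0.123 when 1 sample was left out). The groups did not overlap in 5.79% of all tested genes. The Cdc7 call was lost without Nar 1, 3 or 5 or EAE 1, 2 or 5. It was also lost with the replicate block (adjusted p = 0.0675 by edgeR), upper quartile scaling (0.0515) and limma-trend on FPKM (0.0674, 0.069 and 0.102 in its 3 settings). Wdhd1, a replisome adaptor gene, followed with 0.33 (adjusted p = 0.171 by edgeR). Of 34 fork and nucleotide genes outside the members, 6 were highest in Nar 4 and 0 of 31 tested were called (median 0.052). The smallest p there belonged to Rfc2 (0.18, adjusted p = 0.172) and Clspn (−0.60, adjusted p = 0.371).

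Among regulators, 1 of 19 tested transcription factor genes fell (median −0.014), beside 2.36% of all tested genes. E2f3, an activator of the E2F family, had 18.1, 23, 20.2, 19.1 and 18.1 CPM in Nar and 23.1, 26.8, 25, 27.9 and 22.9 in EAE (−0.35, SE 0.0901, adjusted p = 0.0458 by edgeR, 0.0185 to 0.12 when 1 sample was left out). The E2f3 call was lost without Nar 1, 3 or 5 or EAE 1, 2, 4 or 5, with the mitochondrial share as a covariate (−0.30, adjusted p = 0.237 by edgeR) and with limma-trend on unfiltered FPKM (adjusted p = 0.0541). Nar 2 was the one Nar sample inside the EAE range. Myc, next by p, had −0.68 (adjusted p = 0.0718 by edgeR), and −0.90 without Nar 4 (adjusted p = 0.00223). Of 11 tested kinase and phosphatase genes 0 were called (median −0.029), with Cdc25b at 0.30 (adjusted p = 0.117) and Cdk2 at −0.42 (adjusted p = 0.197). Of 6 tested genes of kinase inhibitors 0 were called (median 0.0088), with Cdkn2d at 0.29 (adjusted p = 0.101) and Cdkn1c at 0.47 (adjusted p = 0.223). Without Nar 4, 3 transcription factor genes fell (E2f3, Myc and the retinoblastoma gene Rb1 at −0.40, adjusted p = 0.0217 by edgeR), as did 1 kinase gene, Cdk2 (−0.62, adjusted p = 0.013). Then 0 inhibitor genes and 0 fork genes were called, and of the origin genes 1 (Cdc7) rose. Among all tested genes, 2.61% were called higher and 7.49% lower without Nar 4.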

How the data were processed

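Polyadenylated RNA of 10 spinal cord samples was captured with poly-T beads and primed with random oligonucleotides, per the labels' protocols, where no strand-marking step is named. The submitters' processing notes list cutadapt and HISAT2 2.0.5. For the counter and the annotation release, a name is not given in the sources used here. Read counts, not normalized, and FPKM values were deposited by the authors for 21936 genes, per the file headers. The deposited FPKM equals the count per kilobase and M counted reads (100% of 153986 values above 0.1 lay within 1%). Coordinates are those of GRCm38, since 21617 genes have the same start and end in GENCODE M21.

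Samples were grouped by title. The main test was edgeR 4.0.16 (R 4.3.3) on the counts, after filterByExpr and TMM, with a robust quasi-likelihood fit coded Nar minus EAE and p-values adjusted by Benjamini-Hochberg for 14595 genes, at 0.05. CPM uses TMM-scaled totals. The code was tested on simulated data. Replicates varied beyond counting noise (chi-square per degree of freedom 4.06 to 37.5). Alternatives were other scaling and filters, DESeq2 1.42.0, limma 3.58.1 on counts and FPKM, a replicate block, the mitochondrial share and leaving out each sample.

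Members, roles and lists were chosen with earlier results of these data known. Values per sample are given for called members, for 8 index members (Mki67, Top2a, Cdk1, Ccnd1, Mcm2, Mcm5, Pcna and E2f1) and for the 2 of smallest p in each role. Pathway genes were named where called, otherwise the 2 of smallest p. Mcm3, Ccnb1, Rrm2, Aurkb and Bub1 were added after their values were seen, as were the pathway genes next by p beside a called one and those called without Nar 4. Of the remaining marker lists, astrocyte markers summed to 9902 CPM in Nar 4, 7156 to 7538 in Nar 1, 2, 3 and 5, and 9348 to 10606 in EAE (3 of 8 tested called lower in Nar by edgeR). Fibroblast and meningeal markers summed to 119.6 CPM in Nar 4, 84.8 to 92.1 in Nar 1, 2, 3 and 5, and 159 to 189 in EAE (5 of 8 lower). Of 8 tested oligodendrocyte markers, 3 were called higher in Nar and 0 lower. Among all tested genes, 1.58% were called higher and 2.36% lower. Over the 10 samples Schwann cell markers summed to 103 to 151 CPM (Pmp2 at 0 in all) and ependymal markers to 31.9 to 53.7.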

Additional observations from a re-analysis of the deposited data

Results flagged for a closer look

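Samples were sought that lay far from the other 4 of their group, with a gap above 0.71 of the group's range. Over 42 genes and 2 groups 84 sets of 5 were examined. Chance marks about 1 in 20 such sets if values are normally distributed, which was not checked for these CPM. No excess over chance is therefore read from the number of flags. In all, 15 values stood apart. Nar 4 was the high value in 13 of them, and 10 of these were mitotic genes: Mki67 (22.2 CPM in Nar 4, 3.58 to 5.67 in the other Nar samples), Top2a (18.2), Cdk1 (4.52), Ccnb1 (4.79), Ccnb2 (3.44), Cdc20 (3.71), Aurkb (3.71), Bub1 (2.09), Tpx2 (9.51) and Ube2c (5.2 CPM). Outside mitosis Nar 4 stood apart in Ccnd3 (37.2 CPM, 29.6 to 31 in the others), Mcm3 (11.3, 4.8 to 5.63) and Rrm2 (8.64, 1.76 to 2.47). These genes share 1 sample, so the 13 are not separate events.

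In EAE, Ccnd3 was low in EAE 4 at 30.5 CPM (32.1 to 32.7 in the others), and Cdt1 was high in EAE 5 at 4.78 CPM (3.19 to 3.36). The coefficient of variation of Ccnd3 over the EAE samples was 2.7%, below the 4.17% from counting error alone. Of the summed levels, Nar 4 stood apart in mitosis (124 CPM), licensing and helicase genes (96.8 CPM) and fork and nucleotide genes (115 CPM), and EAE 3 in S phase entry genes (36.7 CPM, 29.9 to 31.4 in the others).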

How the results depend on the processing

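The count of members called higher, 1 of 40 tested, was 0 with limma-trend on log2(FPKM + 1), log2(FPKM + 0.1) and log2(FPKM + 1) without a filter. Mcm10 was tested in the last of these alone (0.21, on that scale, limma adjusted p = 0.0753). The count was also 0 with the mitochondrial share as a covariate and at an adjusted p below 0.01, and 0 to 1 when 1 sample was left out. The count called lower, 0, was 1 by the DESeq2 Wald test, 2 with the replicate block, 1 at an adjusted p below 0.1, and 0 to 3 when 1 sample was left out (3 without Nar 4). No label says that replicate numbers pair the samples. Same-numbered samples correlated at −0.21 to 0.14 in their deviations from the group means, 1 of 5 best with its own number. So few values cannot settle whether samples of the same number were handled together. Over all genes the count called was 574, against 1307 by the DESeq2 Wald test, 881 with limma-voom, 197 with the covariate, 636 with the block and 161 (without Nar 1) to 1486 (without Nar 4) when 1 sample was left out. With the mitochondrial share as a covariate the median log2 fold change was −0.035 for D-type cyclins, −0.089 for S phase entry, 0.44 for fork and nucleotide genes and 1.18 for mitosis. Leaving out 1 sample gave −0.46 to −0.28, 0.00494 to 0.095, −0.077 to 0.11 and −0.045 to 0.48 for these, and −0.17 to 0.091 for licensing. Uncalled members changed sign: Ccne1 (−0.089) and Mcm2 (0.15) with that covariate, Mcm5 with limma-voom (−0.014), limma-trend at a pseudocount of 1 (−0.0094, filtered or not) or 0.1 (−0.042) and the replicate block (−0.0056), and Cdk1 with limma-voom (−0.000939). Leaving out 1 sample gave −0.14 to 0.021 for E2f1, −0.12 to 0.021 for Mcm2, −0.22 to 0.18 for Mcm5, −0.077 to 0.033 for Pcna, −0.23 to 0.95 for Mki67, −0.51 to 0.69 for Top2a and −0.62 to 0.42 for Cdk1. The cause was not tested. Counting error limits single values of the mitotic genes, most of which are low.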
